A study of Homo sapiens with 6 samples.

Results

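The intestinal brush border is the carpet of microvilli on the apical face of absorptive enterocytes. Its membrane carries the hydrolases that finish the digestion of peptides, sugars and phosphate esters. The 9 genes described here encode 3 exopeptidases (DPP4, ANPEP and ENPEP), 1 endopeptidase (MME), intestinal alkaline phosphatase (ALPI), 3 disaccharidases (SI, MGAM and LCT) and the actin-bundling protein villin (VIL1), which is a structural component of the microvillus core and no enzyme. They were chosen by symbol, from probe sets that the platform annotation maps to exactly 1 gene, out of 18417 such genes, and each of the 9 had 1 probe set.

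Expression was measured on 6 arrays, read as 1 channel each, of the long-established human colon cancer cell line HT29. On 3 arrays the cells had a construct that expresses laminin α1, which is 1 of the chains that laminin trimers of the basement membrane are built from, and on 3 they had a control construct. Both groups had grown for 7 days, and the arrays of a group came from separate culture passages. Whether each group was 1 clone, which sequence the construct held and what promoter drove it are not stated in the labels, so the p values measure the spread between passages. LAMA1 had levels of 5.79, 5.72 and 5.71 in laminin α1 cells, against 5.71, 5.63 and 5.60 in control cells, on the log2 scale of the deposited values. The limma test did not call that difference (adjusted p = 0.535), and since it is not known whether its probes match the construct, LAMA1 does not check the labels. All 10 epithelial identity markers of the cell line, EPCAM and KRT8 among them, lay above the level filter, a mean over the 6 arrays above log2 5.50.

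Among the 13812 genes above that filter, 358 fell and 372 rose in laminin α1 cells at an adjusted p under 0.05, together 730 genes or 5.29%, of which the genes that rose were 2.69% of those tested. The count was 429 without laminin α1 replicate 2, 1214 without laminin α1 replicate 3 and 407 without control replicate 2. An unadjusted p under 0.05 in limma was reached by 2310 of the 13812. The median difference of all tested genes was -0.01. All differences are laminin α1 minus control on the log2 scale, with an SE or a 95% interval from limma and n = 3 arrays per group. Levels are not set against each other between genes, because each probe set has its own response.

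DPP4, the serine exopeptidase also known as CD26, fell in laminin α1 cells. It was the only 1 of the 4 members above the level filter to pass the threshold, against a background of 2.59% of tested genes that fell. The other 3, ANPEP, ALPI and VIL1, did not pass. The remaining 5 members, ENPEP, MME, SI, MGAM and LCT, lay below the level filter, where signal is low. In bulk RNA, fewer cells with a transcript and less transcript per cell cannot be told apart.

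The DPP4 level was 7.27, 7.13 and 7.36 in laminin α1 cells, against 8.44, 8.34 and 8.49 in control cells. Every laminin α1 array lay below every control array, and the spread within each group was small (SD 0.12 in laminin α1 and 0.08 in control cells). The difference was -1.17 (SE 0.08, 95% interval -1.34 to -0.99), which is a 2.25-fold lower level, with adjusted p = 1.55e-05. By the size of the fall DPP4 ranked 30 among the 358 genes that fell, whose median difference was -0.45. With each array left out in turn its difference stayed between -1.22 and -1.11, with adjusted p values up to 0.000259.

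**Figure D1:**
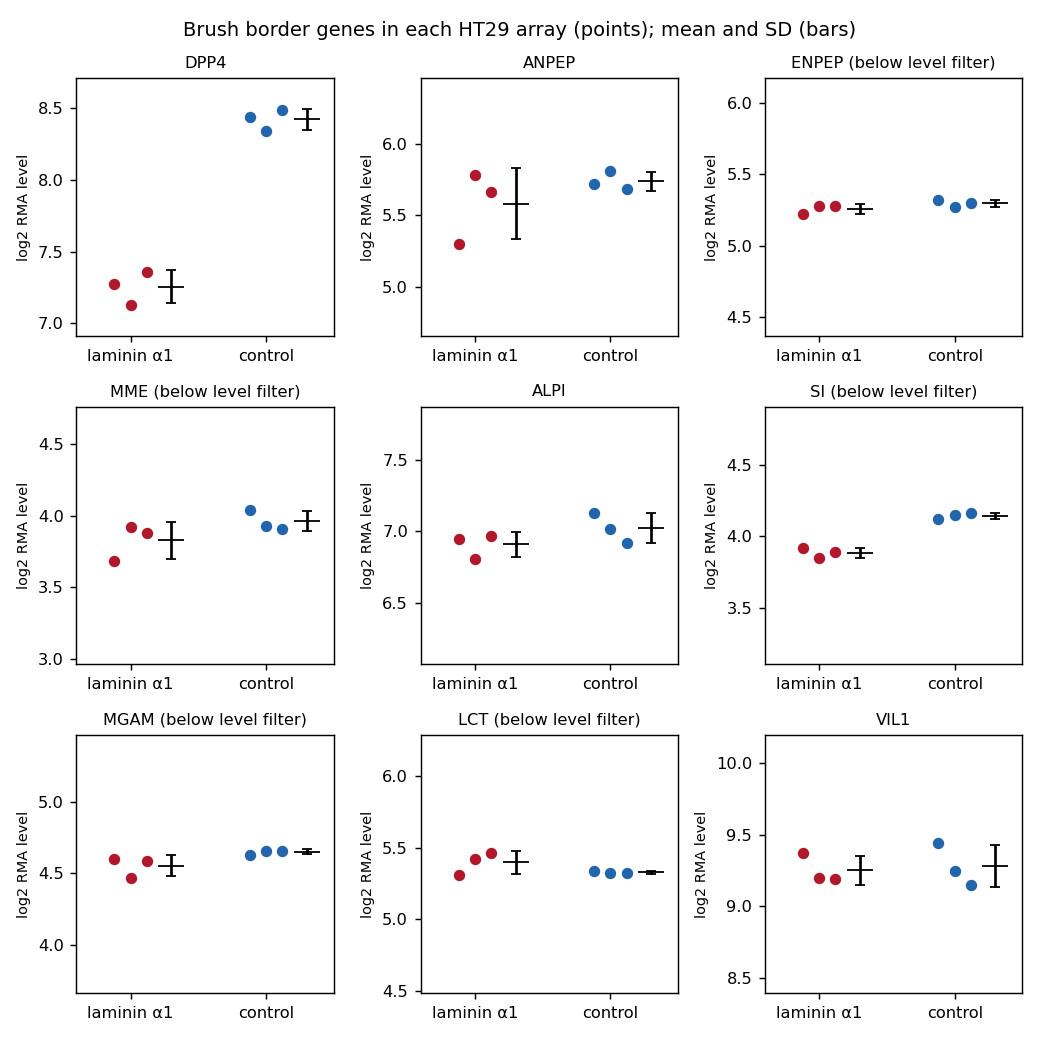
Log2 RMA level (y axis) of the 9 brush border genes in each of the 3 laminin α1 arrays (red) and 3 control arrays (blue), with the mean and SD beside them; every panel spans the same log2 range. The DPP4 groups are far apart (means 7.25 in laminin α1 and 8.42 in control cells), while those of ANPEP, ALPI and VIL1 overlap.

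Promoter sequences are shown for DPP4, for SI as a classical brush border promoter, and for ALPI as a member above the filter that did not pass. RefSeq promoters of the build GRCh38.p14 were listed for 7 of the 9 members, all but LCT and VIL1. The lines give the 250 bases before the annotated start, 5′ to 3′ on the strand of the gene. Capitals mark matches, on either strand, to GTTAAT (part of the site of the factor HNF1), TTTAT (a core of the caudal factors CDX1 and CDX2), AGATAA (core of zinc-finger factors such as GATA6), GGGCGG (a GC box) or TTCNNNGAA (a STAT element).
DPP4 (chr2:162074216-162074465, minus strand): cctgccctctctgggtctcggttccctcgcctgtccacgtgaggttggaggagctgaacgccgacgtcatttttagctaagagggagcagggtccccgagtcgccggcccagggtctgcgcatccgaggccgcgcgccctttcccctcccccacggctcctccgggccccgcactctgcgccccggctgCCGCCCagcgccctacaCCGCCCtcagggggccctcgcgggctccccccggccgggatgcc
SI (chr3:165078497-165078746, minus strand): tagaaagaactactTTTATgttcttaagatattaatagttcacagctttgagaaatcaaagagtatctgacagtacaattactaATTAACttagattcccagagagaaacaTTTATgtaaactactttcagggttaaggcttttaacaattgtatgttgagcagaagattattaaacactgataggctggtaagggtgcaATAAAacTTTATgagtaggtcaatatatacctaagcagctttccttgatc
ALPI (chr2:232455903-232456152, plus strand): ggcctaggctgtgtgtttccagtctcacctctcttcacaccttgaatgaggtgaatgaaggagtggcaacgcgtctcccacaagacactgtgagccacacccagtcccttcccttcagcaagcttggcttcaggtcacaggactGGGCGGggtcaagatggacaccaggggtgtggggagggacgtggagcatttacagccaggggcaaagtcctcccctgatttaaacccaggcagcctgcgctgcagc

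The DPP4 window was rich in G and C (73.6%, higher than 86.9% of all promoters listed) and held 2 GC boxes, with no match to the other 4 motifs. By contrast, the SI window had a GC content of 31.6%, 4 matches to TTTAT, 1 to GTTAAT and no GC box. For ALPI the only match was 1 GC box, at a GC content of 58.4%. MGAM, the other maltase, had 2 matches to GTTAAT and 1 to TTTAT, and ENPEP had 2 matches to TTTAT. GC boxes were not particular to DPP4: 1 of the 2 ANPEP starts held 4, at a GC content of 74.0%, while the other held 1 match to GTTAAT, and 3 of the 4 MME starts held 2 GC boxes each. The windows of these 3 MME starts overlap, so a box can be counted for more than 1 start. Some ANPEP and MME boxes also share bases. Among all 35116 promoters of the table, 6.23% held GTTAAT, 32.7% TTTAT, 9.17% AGATAA, 42.6% GGGCGG and 6.57% TTCNNNGAA. A match describes the sequence and says nothing of binding in these cells.

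ANPEP, aminopeptidase N or CD13, removes neutral amino acids from the ends of peptides. Its level was 5.30, 5.78 and 5.66 in laminin α1 cells, against 5.72, 5.81 and 5.68 in control cells. Laminin α1 replicate 1 was the low array and the groups overlapped. The difference was -0.16 (95% interval -0.41 to 0.09, adjusted p = 0.547), and without laminin α1 replicate 1 it was -0.02. ENPEP, aminopeptidase A, which cleaves acidic residues and acts on angiotensin, was below the level filter in every array, with 5.22 to 5.28 in laminin α1 cells and 5.27 to 5.32 in control cells. In a fit of all 18417 genes without the filter its difference was -0.04 (95% interval -0.17 to 0.09, adjusted p = 0.841).

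MME, the zinc endopeptidase neprilysin or CD10, was also below the filter. It ranged over 3.68 to 3.92 in laminin α1 cells and 3.91 to 4.04 in control cells, and its groups overlapped. Its difference was -0.13 (95% interval -0.31 to 0.04, adjusted p = 0.511 without the filter). The 95% intervals of these 3 metallopeptidases did not reach a fall of the size seen for DPP4. At low signal an array understates a change, and ENPEP and MME were below the filter in both groups. ANPEP, with a control mean of 5.74, lay just above it. The intervals therefore cannot exclude a fall of that size. The families of these 3 genes, the M1 aminopeptidases and M13 endopeptidases, had 12 further tested members, of which 0 passed in either direction and 2 had an unadjusted p under 0.05. The share of all tested genes that passed was 5.29%. The differences of these 12 lay between -0.22 for ERAP2 and 0.17 for ECE1, with a median of -0.03.

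ALPI, the phosphatase that strips phosphate from dietary substrates and bacterial lipopolysaccharide, had levels of 6.95, 6.81 and 6.97 in laminin α1 cells, against 7.13, 7.02 and 6.92 in control cells. The groups overlapped by 1 control array, replicate 3. The difference was -0.12 (95% interval -0.29 to 0.06, adjusted p = 0.518). ALPP and ALPG, placental-type phosphatases of close sequence whose RNA could reach the same probes, had differences of 0.02 and 0.10, and neither passed. ALPL, the tissue-nonspecific phosphatase, had a difference of -0.23 (adjusted p = 0.136).

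SI, sucrase-isomaltase, which splits sucrose and starch fragments, had 3.92, 3.85 and 3.89 in laminin α1 cells, against 4.12, 4.15 and 4.16 in control cells. All 6 values were far below the level filter, yet the groups did not overlap, which held for 19.5% of all genes, 10.3% with the laminin α1 arrays lower. Without the filter, where 4.21% of all genes passed and 2.07% passed as lower, the difference was -0.25 (95% interval -0.38 to -0.12) and passed narrowly (adjusted p = 0.0418). Leaving out any 1 of the 6 arrays ended that call, with adjusted p values of 0.0527 to 0.190. MGAM, maltase-glucoamylase, had 4.60, 4.47 and 4.59 in laminin α1 cells, against 4.63, 4.66 and 4.66 in control cells. Its groups did not overlap but lay close together, and the difference of -0.10 did not pass (95% interval -0.24 to 0.04, adjusted p = 0.536 without the filter).

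MGAM2, the neighbour and paralog of MGAM, fell in laminin α1 cells and was above the filter. It had 8.29, 8.29 and 8.64 in laminin α1 cells, against 8.91, 8.83 and 8.96 in control cells, a difference of -0.49 (SE 0.10, adjusted p = 0.0159). The 2 sequences are similar, so probes of either could bind RNA of the other. The call of MGAM2 was lost without laminin α1 replicate 1 or 2 or control replicate 1 or 3 (adjusted p 0.0508 to 0.0835). LCT, lactase, which digests milk sugar and declines after weaning in many people, was the only member with a positive difference. It had 5.31, 5.42 and 5.46 in laminin α1 cells, against 5.34, 5.32 and 5.32 in control cells, a difference of 0.07 (95% interval -0.07 to 0.21, adjusted p = 0.708 without the filter). For the 5 members below the filter the exact two-sided permutation p was 0.1 for SI and MGAM, 0.2 for MME, 0.3 for ENPEP and 0.4 for LCT, where 0.1 is the smallest that 3 against 3 arrays allow.

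VIL1, which bundles and severs actin filaments in the microvillus core, had levels of 9.37, 9.20 and 9.19 in laminin α1 cells, against 9.44, 9.25 and 9.15 in control cells. The laminin α1 values lay within the range of the control values. The mean difference was -0.03 (95% interval -0.23 to 0.17, adjusted p = 0.913), which turned to 0.05 without control replicate 1 and to 1.05e-05 without laminin α1 replicate 3. Among 6 tested relatives in the villin and gelsolin family, FLII, an actin-remodelling protein, rose by 0.37 (adjusted p = 0.0285) and the other 5 did not pass. An unadjusted p under 0.05 in limma was reached by 2 of the 6, and 2.69% of all tested genes rose. The FLII call was lost without laminin α1 replicate 1 or any 1 control array (adjusted p 0.0550 to 0.120).

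**Figure D2:**
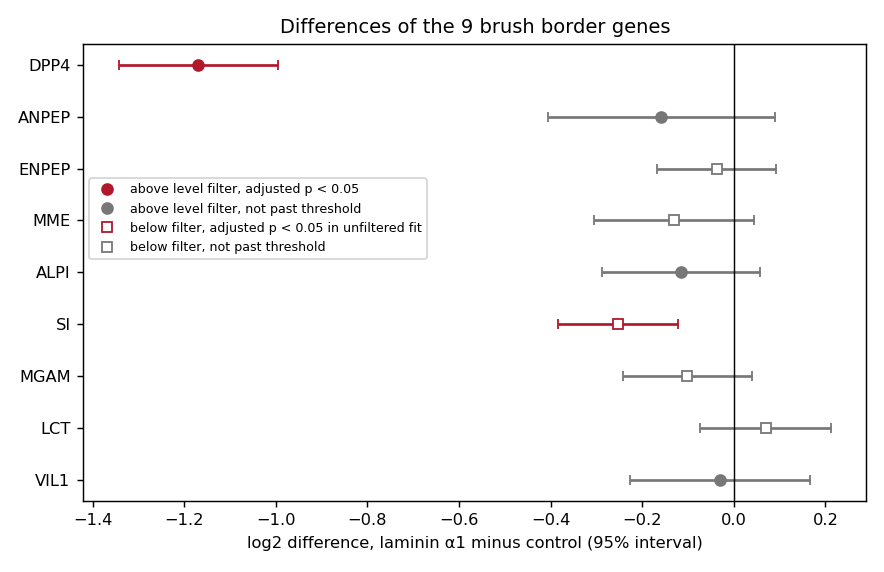
Log2 difference (x axis, laminin α1 minus control, with 95% intervals from limma) of the 9 genes; filled circles are genes above the level filter, open squares genes below it, and red marks an adjusted p under 0.05. DPP4 at -1.17 stands apart from the others, which lie between -0.25 for SI and 0.07 for LCT.

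Differences between genes were tested within arrays for 6 pairs, of which 4 set DPP4 against another gene. DPP4 minus VIL1 was -2.09, -2.07 and -1.83 in laminin α1 cells, against -1.0, -0.92 and -0.66 in control cells, a change of -1.14. The change was -1.05 for DPP4 minus ALPI, -1.01 for DPP4 minus ANPEP and -1.42 for DPP4 minus FAP, a relative of DPP4 below the filter, again with no overlap between the groups. The pairs without DPP4 were MGAM2 minus MGAM, with a change of -0.39, and SI minus MGAM, with -0.15. Each of the 6 pairs had the exact two-sided permutation p of 0.1, the smallest possible here, and adjustment over the pairs left it at 0.1. The 4 pairs with DPP4 carry its own fall, so they repeat the DPP4 result and add no separate support. For single genes, groups without overlap held for 19.5% of all genes. Of all 9 members, 8 had a negative difference, against 54.1% of all genes, and without DPP4 the median of the 8 others was -0.11. Of those 8, SI alone had a 95% interval that left out 0.

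DPP4 belongs to a family of prolyl peptidases. FAP, its closest relative and its neighbour on chromosome 2, was below the filter, with 4.37, 4.44 and 4.52 in laminin α1 cells, against 4.26, 4.35 and 3.98 in control cells. Its difference was 0.25 (adjusted p = 0.239 without the filter). The 7 tested relatives, which include the cytosolic DPP8 (-0.25, adjusted p = 0.333) and DPP9 (0.23, adjusted p = 0.281), had 0 members past the threshold, 1 (DPP9) at an unadjusted p under 0.05, and a median of 0.08. A p that misses the threshold does not show that they were unchanged, and 5.29% of all tested genes passed.

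DPP4 is known to bind adenosine deaminase and to clip chemokines and gut hormones. Of 10 tested partners and substrates 2 rose and 0 fell, against 2.69% and 2.59% of all tested genes. CXCL10, a T cell chemokine cleaved by DPP4, had 8.78, 8.93 and 9.07 in laminin α1 cells, against 7.31, 7.45 and 7.89 in control cells, and rose by 1.38 (adjusted p = 0.000223). CCL5, another chemokine substrate, rose by 0.50 (adjusted p = 0.00217). CXCL11, of the same list, had a difference of 0.34 and did not pass (adjusted p = 0.193). An unadjusted p under 0.05 in limma was reached by 3 of the 10, and the median of the 10 was 0.03. ADA, the adenosine deaminase that DPP4 anchors, had a difference of 0.13 (adjusted p = 0.446); it was singled out after its value was seen.

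The wider brush border was read from lists of named genes. Of all tested genes, 2.59% fell and 2.69% rose. Among other brush border hydrolases, MGAM2 alone of 8 tested genes passed, 2 had an unadjusted p under 0.05 in limma, and the median was -0.01. A further 7 on the array were below the filter, among which 0 passed in the unfiltered fit. Microvillus genes had 3 of 26 tested members lower and 0 higher, with a median of -0.08. Of the 26, 13 had an unadjusted p under 0.05 in limma, in either direction, against 2310 of all 13812 tested genes. The difference was negative for 17 of the 26, against 7508 of the 13812. ANKS4B, a scaffold of the complex that links microvillus tips, had 8.05, 7.76 and 7.79 in laminin α1 cells, against 8.63, 8.55 and 8.60 in control cells, and fell by 0.73 (adjusted p = 0.000673). MYO7B, the myosin of the same complex, fell by 0.33 (adjusted p = 0.0273), while its cadherins CDHR2 and CDHR5 had differences of -0.08 and 0.16 and did not pass. USH1C and CALML4, of the same list, had differences of -0.24 and -0.14 and did not pass either (adjusted p = 0.0713 and 0.338). PLS3, an actin-bundling plastin, fell by 0.56 (adjusted p = 0.0393). ANKS4B kept its call with each array left out. That of MYO7B was lost without laminin α1 replicate 2 or any 1 control array (adjusted p 0.0520 to 0.127), and that of PLS3 without laminin α1 replicate 1 or 2 or control replicate 2 or 3 (adjusted p 0.103 to 0.156).

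Brush border transporters had 2 of 14 tested members lower and 1 higher, with a median of -0.02. Of all tested genes, 2.59% were lower and 2.69% higher. An unadjusted p under 0.05 in limma was reached by 4 of the 14, against 2310 of all 13812 tested genes. SLC5A1, the sodium-coupled glucose transporter, had 8.09, 8.05 and 7.96 in laminin α1 cells, against 8.86, 8.68 and 8.62 in control cells, and fell by 0.69 (adjusted p = 0.000543). SLC3A1, the heavy chain of the cystine and basic amino acid transporter, had 5.32, 5.22 and 5.35 in laminin α1 cells, against 5.88, 5.74 and 5.84 in control cells, and fell (adjusted p = 0.00139). Its laminin α1 values were all below the filter, which the gene passed through its control level, so the difference of -0.53 is uncertain in size. Its light chain SLC7A9 had a difference of 0.13 and did not pass. SLC6A20, a proline transporter, rose by 0.42 (adjusted p = 0.0263). Its call was lost without laminin α1 replicate 1 or 2 or control replicate 2 or 3 (adjusted p 0.0632 to 0.112). Below the filter, ABCB1, the drug efflux pump, had a difference of 0.30 (adjusted p = 0.0457 without the filter).

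Other enterocyte and colonocyte genes had 5 of 14 tested members lower and 1 higher, with a median of -0.01. The shares of all tested genes were 2.59% lower and 2.69% higher. An unadjusted p under 0.05 in limma was reached by 6 of the 14, against 2310 of all 13812 tested genes. CDH17, the liver-intestine cadherin, had 4.81, 4.95 and 5.04 in laminin α1 cells, against 6.52, 6.61 and 6.62 in control cells. Since its laminin α1 level was below the filter, the fall of 1.65 (adjusted p = 1.58e-06) is uncertain in size. ANXA13, an annexin of the enterocyte apical membrane, had 6.68, 6.42 and 6.32 in laminin α1 cells, against 8.07, 8.0 and 8.07 in control cells, and fell by 1.57 (adjusted p = 6.98e-06). GUCA2A, the peptide guanylin, fell by 0.43, KRT20, a keratin of differentiated intestinal cells, by 0.35, and LGALS4, an apical lectin, by 0.31. FABP6, the ileal bile acid binding protein, rose by 0.56 (adjusted p = 0.00555). The calls of GUCA2A and LGALS4 were lost without control replicate 1 or 2, that of LGALS4 also without laminin α1 replicate 2, and that of KRT20 without laminin α1 replicate 2 or control replicate 2 (adjusted p 0.0599 to 0.101).

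**Figure D3:**
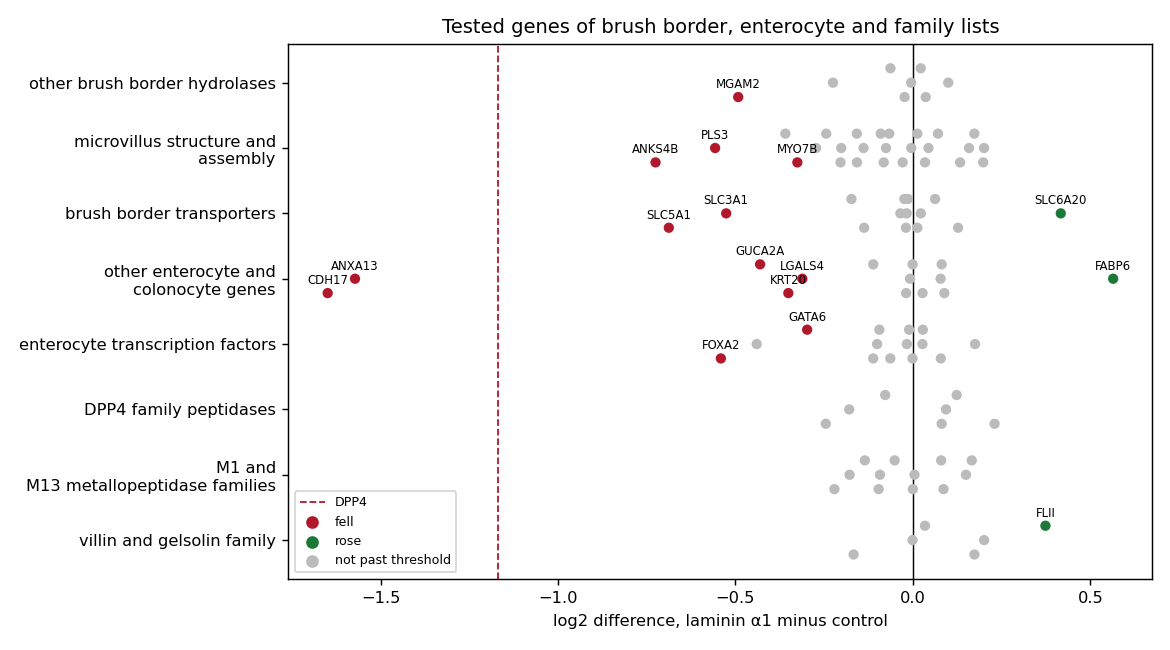
Log2 difference (x axis, laminin α1 minus control) of every gene above the level filter in 8 lists (rows, points offset vertically for legibility), red for genes that fell, green for genes that rose and grey for genes not past the threshold; the dashed line marks DPP4 at -1.17. CDH17 and ANXA13 fell further than DPP4, and most genes of each list lie near 0.

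Transcription factors known to act on brush border promoters had 2 of 14 tested members lower and 0 higher, with a median of -0.04. The shares of all tested genes were 2.59% lower and 2.69% higher. An unadjusted p under 0.05 in limma was reached by 4 of the 14, against 2310 of all 13812 tested genes. FOXA2, a forkhead factor of gut endoderm, had 6.33, 6.71 and 6.58 in laminin α1 cells, against 7.18, 7.13 and 6.92 in control cells, and fell by 0.54 (adjusted p = 0.0136). GATA6, a zinc-finger factor of the epithelium, fell by 0.30 (adjusted p = 0.0379). The FOXA2 call was lost without control replicate 1 or 2 (adjusted p 0.0683 and 0.0684), and the GATA6 call without any 1 of the 6 arrays (adjusted p 0.0599 to 0.137). CDX1 and CDX2, the caudal factors whose core was searched in the promoters, had differences of -0.0011 and 0.03; they were singled out after their values were seen.

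Most tested goblet cell markers fell alongside DPP4. Of 7 tested goblet cell markers 5 fell and 0 rose, and the mean level of the 8 on the array was 6.60 to 6.69 in laminin α1 cells, against 7.60 to 7.61 in control cells. For this and the other marker lists, the shares of all tested genes were 2.59% lower and 2.69% higher. SPDEF and ZG16 did not pass, with differences of -0.07 and -0.06 (adjusted p = 0.732 and 0.718). CLCA1, below the filter, had a difference of -0.23 (adjusted p = 0.132 without the filter). MUC2, the goblet cell mucin, fell by 2.20, and TFF3, a trefoil peptide, fell by 1.60. SPINK4, a protease inhibitor of goblet cells, fell by 1.49, AGR2, a disulfide isomerase needed for mucin folding, fell by 1.16, and FCGBP, a mucus protein, fell by 0.92. NEUROG3, the factor that starts the enteroendocrine lineage, fell by 1.22, as the only 1 of 4 tested enteroendocrine markers past the threshold. LGR5, the stem cell receptor, went the other way and rose by 1.38, the only 1 of 3 tested stem cell markers to pass. Tuft cell markers had 0 of 4, fibroblast markers 0 of 5 and endothelial and blood markers 0 of 4 past the threshold, with 1, 0 and 1 of them in that order at an unadjusted p under 0.05. CEACAM5, an adhesion glycoprotein of colonic cells with close paralogs, fell by 1.17 (adjusted p = 8.75e-06) among the 10 epithelial identity markers of the cell line, of which 3 fell, the others being LGALS4 and KRT20, and 0 rose. The part of these markers in the DPP4 result was not tested.

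The genes whose levels followed DPP4 most closely over the 6 arrays were CADPS2 (Pearson r = 0.998), SLC14A1 (0.997), NTN4 (0.995), PDCD4 (0.995) and SLC3A1 (0.995). All 5 fell, by 0.41 to 0.64, although the size is uncertain for SLC3A1. Those that ran most opposite were EIF6 (r = -0.995), which did not pass the threshold, and CCL5 (-0.993). Over the 2 groups and 6 arrays, the looser bound of 0.95 was reached by 221 of 13811 genes and that of -0.95 by 197. A high r was thus not particular to the genes named. Among the members, the r with DPP4 was 0.986 for SI, 0.812 for MGAM, 0.651 for ENPEP, 0.631 for ALPI, 0.586 for MME, 0.412 for ANPEP, 0.142 for VIL1 and -0.59 for LCT. The highest of these belong to members below the filter, and all are descriptions over arrays that share their normalization.

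Of the 10 nearest measured genes on each side of DPP4 on chromosome 2, 13 were tested. Of these 2 fell, 1 rose and 10 did not pass, with a median of -0.12. Among all tested genes 2.59% fell and 2.69% rose. SLC38A11, an amino acid transporter at the edge of that window, fell by 1.48 (adjusted p = 1.56e-05). PLA2R1, a phospholipase receptor, fell by 0.34 (adjusted p = 0.0476), and IFIH1, an interferon-induced RNA sensor, rose by 0.44 (adjusted p = 0.0264). The PLA2R1 call was lost without each array other than laminin α1 replicate 3 (adjusted p 0.113 to 0.186), and that of IFIH1 without laminin α1 replicate 1 or any 1 control array (adjusted p 0.0780 to 0.0930). Around MGAM on chromosome 7, 2 of 10 tested neighbours fell, MGAM2 and DENND11, and 2 rose, PRSS1, a trypsinogen with close copies, and EPHB6, an Eph receptor, which rose by 0.78 (adjusted p = 0.000210). The same shares of all tested genes, 2.59% and 2.69%, stand beside these counts. DENND11 and PRSS1 each lost their call without laminin α1 replicate 1 or 2 and without 2 of the control arrays (adjusted p 0.0540 to 0.141).

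**Figure D4:**
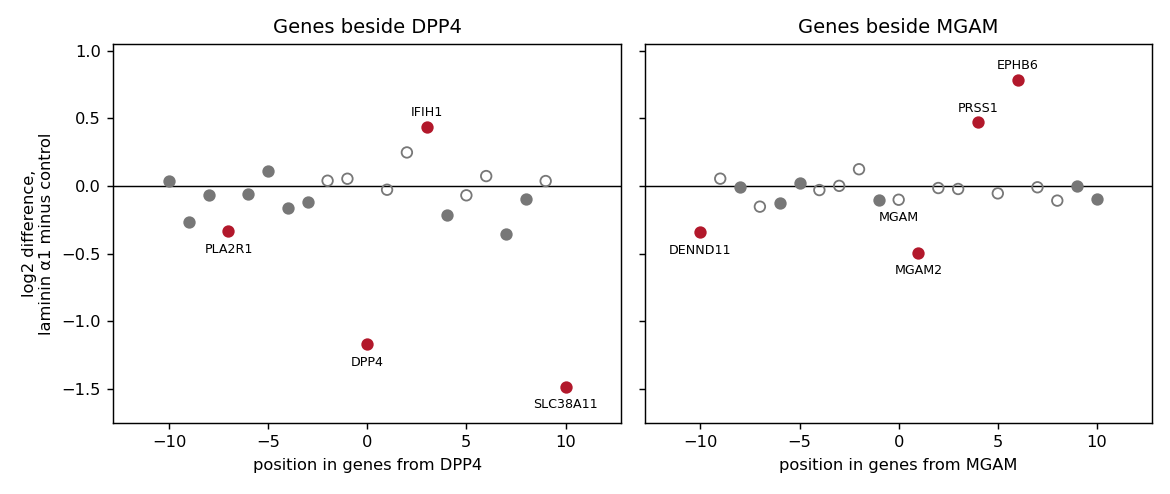
Log2 difference (y axis, laminin α1 minus control) of DPP4 and MGAM and the 10 measured genes on each side, by position in genes (x axis); filled points are above the level filter, open points below it, and red marks an adjusted p under 0.05. DPP4 at -1.17 lies below all its neighbours but 1, with SLC38A11 at -1.48 at the edge.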

How the data were processed

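Gene expression was read from 1 value table of 6 arrays. The deposited values are log2 expression per probe set, which the submitters' processing notes credit to Affymetrix Expression Console 1.1 with RMA. This method subtracts background, forces all arrays to 1 distribution and combines the probes of a set. A shift shared by all genes is thereby removed. The values ran from 2.40 to 13.9 and were used without further normalization. The genome build of the probes is not given in the sources used here. Of 33297 probe sets, the platform annotation gave exactly 1 symbol for 19460, several for 1754 and none for 12083. The brightest probe set was kept for each of 18417 genes. Genes with a mean above the 25th percentile, log2 5.50, were tested in limma 3.58.1 (R 4.3.3; lmFit, then eBayes), with no covariates and Benjamini-Hochberg adjustment at 0.05. Members below that level were read from the same fit without a filter. All adjusted p values are from limma. Arrays give no depth, and 3 per group limit the precision (median SE of a difference 0.08).

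Members, gene lists and tests were chosen with earlier results of these data known. The named genes were every member, LAMA1, all list genes past the threshold (up to 8 per list), relatives in the family lists, the 5 genes most and 2 least like DPP4, and neighbours past the threshold. CDHR2, CDHR5, USH1C, CALML4, SLC7A9, ALPP, ALPG, ALPL, CXCL11, SPDEF, ZG16 and CLCA1 fall outside this rule and were chosen after their values were seen. Neighbours followed the gene order of RefSeq. The fit was tested on simulated data. Alternatives were other filters, probe set rules, scalings, moderation, weights per array, a replicate block, arrays left out in turn and a stricter threshold.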

Additional observations from a re-analysis of the deposited data

How the results depend on the processing

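The DPP4 difference kept its direction and stayed past the threshold under all 15 alternatives, between -1.22 and -1.11, with adjusted p values up to 0.000474. The count of 730 genes became 442 with all probe sets tested separately, 1596 with the replicate block, 393 at an adjusted p threshold of 0.01 and 4691 with array weights, and ranged from 407 to 1214 with 1 array left out. The array weights did not converge and ran from 0.317 to 10.7, so the counts with them are doubtful. The count of 1 member past the threshold became 2 with no filter, through SI, and 2 with array weights, through ALPI (adjusted p = 0.00756), and was 1 with each array left out. The 26 list genes past the threshold became 17 with the filter at the 50th percentile, 17 with all probe sets tested separately, 17 at a threshold of 0.01 and 64 with array weights, and ranged from 18 to 31 with 1 array left out. The call of SI was lost under 7 of 13 alternatives, at adjusted p = 0.0843 with all probe sets tested separately and 0.0527 to 0.190 with 1 array left out. MGAM passed with array weights (adjusted p = 0.00685). The VIL1 difference ranged from -0.10 to 0.05 with 1 array left out and changed sign without laminin α1 replicate 3 (1.05e-05) and without control replicate 1 (0.05003). The cause of these changes was not tested, apart from the smaller number of genes or arrays that some settings use by construction.

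Replicate numbers are shared between the groups, but the labels give no reason for it. Deviations of same-numbered arrays from their group means correlated at 0.390, 0.0216 and 0.530 for replicates 1, 2 and 3. Pairs with unlike numbers ran from -0.487 to 0.162, the highest being laminin α1 replicate 2 with control replicate 1. The values for replicates 1 and 3 thus lay above those of all unlike pairs, and that for replicate 2 did not. Whether same-numbered arrays were processed together was not tested, and the main fit used no pairing. With the replicate block DPP4 had adjusted p = 1.53e-05, SI passed (adjusted p = 0.0330), 35 list genes passed, and the call of no member changed.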

Other observations

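Genes beside the members other than DPP4 and MGAM were read in the same way, against the 5.29% of all tested genes that passed. Of the 10 nearest measured genes on each side, 0 of 17 tested beside VIL1, 0 of 19 beside ALPI, 0 of 12 beside LCT and 0 of 13 beside MME passed in limma, while 1, 3, 2 and 4 of these had an unadjusted p under 0.05. Beside ANPEP 1 of 17 tested genes passed, beside ENPEP 2 of 12 and beside SI 1 of 12, with 2, 2 and 5 at an unadjusted p under 0.05. Over all 13812 tested genes, 2310 had such a p. CXCR4, a chemokine receptor beside LCT, lay below the level filter and passed in the fit without it, with a mean level of 5.02 in laminin α1 cells and 5.53 in control cells (difference -0.52, adjusted p = 0.00813). IDH2, a mitochondrial dehydrogenase, fell by 0.38 beside ANPEP (adjusted p = 0.0246). MCUB, a calcium uniporter subunit, and ARSJ, an arylsulfatase, fell by 0.36 and 0.39 beside ENPEP (adjusted p = 0.0250 and 0.00528), and TERC, the telomerase RNA, fell by 0.31 beside SI (adjusted p = 0.0133). The calls of IDH2, MCUB and TERC were each lost without laminin α1 replicate 2 and without 2 of the control arrays (adjusted p 0.0577 to 0.129), and that of ARSJ held with each array left out. The median difference of the tested neighbours lay between -0.12 beside SI and 0.05 beside VIL1.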
